A study of Mus musculus with 8 samples.

Results

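Solute carriers are membrane proteins that move small molecules such as amino acids, sugars, nucleosides, vitamins, metabolic acids and ions across the plasma membrane and the membranes of organelles. They are named by family, with a number for the family and a letter and number for the member (Slc16a1 is the first member of family 16). Some exchange 1 solute for another, some couple transport to a sodium or proton gradient, and some let a solute flow down its own gradient. Dividing lymphoid progenitors use them to take up glutamine, leucine, glucose, folate and nucleosides and to export lactate. The genes described here are all genes named Slc with a family number and a letter, chosen by a mean exonic level over the 8 libraries of at least 1 CPM (the reads of a gene scaled to a common library size, with library sizes adjusted by edgeR's TMM method). This rule kept 157 of 326 genes with such a name, in 42 families, out of 47937 gene identifiers in the count tables, of which 12889 had enough reads to be tested. The level that chose them is the mean over both groups and is not reported as a finding. Of the 169 genes below the limit, 80 had no exonic read in any library and 14 had enough reads for the test. Just inside the limit were Slc25a47 at 1.13 CPM, Slc39a4 at 1.15 CPM and Slc46a3 at 1.28 CPM, and just outside it were Slc5a9 at 0.942 CPM, Slc12a5 at 0.868 CPM and Slc25a2 at 0.867 CPM. Of the 157 genes, 4 carry an Slc name without being carriers themselves: Slc9a3r1, Slc4a1ap, Slc7a6os and the pseudogene Slc2a4rg-ps.

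The cells were a transformed mouse line of pro-B cells, made with the Abelson virus A-MuLV, in which the endogenous transcription factor EBF1 had been replaced by an exogenous modified gene (genotype EBF1-dTAG_N). EBF1 is a transcription factor that specifies the B cell lineage, and dTAG-13 is a small molecule that brings a protein carrying the dTAG domain to the ubiquitin system for degradation. The 4 control libraries, titled 0 h, came from cells kept in DMSO for 6 h, and the 4 treated libraries came from cells kept in 0.5 µM dTAG-13 for 6 h. Every library carries the same genotype, so no library shows what the compound does to cells without the tag. The submitters call the 4 libraries of a condition biological replicates. Total RNA depleted of ribosomal RNA was sequenced with a strand-specific kit, and reads were counted in exons and in whole genes. The difference of these counts is used here as the intronic count, which comes mainly from RNA that has not been spliced.

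Exonic counts totalled 28982316 to 38999496 reads a library, and intronic reads made up 20.4% to 27.3% of whole-gene reads. The 157 Slc genes together took 0.847% to 0.892% of exonic reads in the DMSO libraries and 0.872% to 0.926% in the dTAG-13 libraries, ranges that overlap. On TMM-scaled library sizes their summed level was 8742 to 8770 CPM in DMSO and 8778 to 8976 CPM after dTAG-13. These ranges were apart by a small margin. All 11 pro-B cell markers examined were present at 1 CPM or more on average, and their summed level was 3002 to 3071 CPM in DMSO and 2258 to 2395 CPM after dTAG-13. Ebf1 RNA itself was at a mean of 623 CPM in DMSO and 767 CPM after dTAG-13; the compound acts on the protein, which RNA counts do not measure. All 4 T cell markers (Cd3e, Cd3d, Cd4, Cd8a) had no read in any library. The 4 myeloid markers summed to 0.162 to 0.391 CPM in DMSO and 0.429 to 1.06 CPM after dTAG-13 with Cd14 at 0, and the 2 NK cell markers summed to 0.104 to 0.261 and 0.381 to 0.727 CPM with Ncr1 at 0. The 4 erythroid markers summed to 0.553 to 0.933 CPM in DMSO and 0.0272 to 0.182 CPM after dTAG-13, with 3 of them, the globins Hbb-bs and Hba-a1 included, at 0. The 3 plasma cell markers summed to 9.42 to 11.6 CPM and 8.49 to 9.18 CPM with Prdm1 at 0, and the 3 stromal markers stayed at or below 0.272 CPM.

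After 6 h of dTAG-13, the exonic level of 25 Slc genes fell, that of 40 rose and that of 92 did not pass the test (edgeR quasi-likelihood F test, Benjamini-Hochberg adjusted p below 0.05 over all 12889 tested genes). These are 15.9% lower and 25.5% higher, or 41.4% in all. Among the 10900 tested genes of at least 1 CPM, 16.1 percent were lower, 16.1 percent were higher and 32.2 percent were called in either direction; over all tested genes the share called was 28.3 percent. The share of lower calls among Slc genes was therefore near the background, and the share of higher calls was above it. The median change was 0.06 on the log2 scale for the Slc genes and -0.00 for tested genes of at least 1 CPM. In 63 Slc genes (40.1%) the 4 DMSO and 4 dTAG-13 libraries did not overlap, against 31.3 percent of genes of at least 1 CPM. Most changes were small: of the called genes, 10 fell and 10 rose by at least 1.5-fold, and 3 fell and 2 rose by at least 2-fold. The shares of all tested genes at these fold limits were not counted, so these numbers describe the Slc genes only. The median size of a called change was 0.37 for the lower genes and 0.28 for the higher genes on the log2 scale, against 0.26 and 0.31 for all called genes. In bulk RNA, fewer cells that express a gene and less RNA per cell cannot be told apart.

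**Figure D1:**
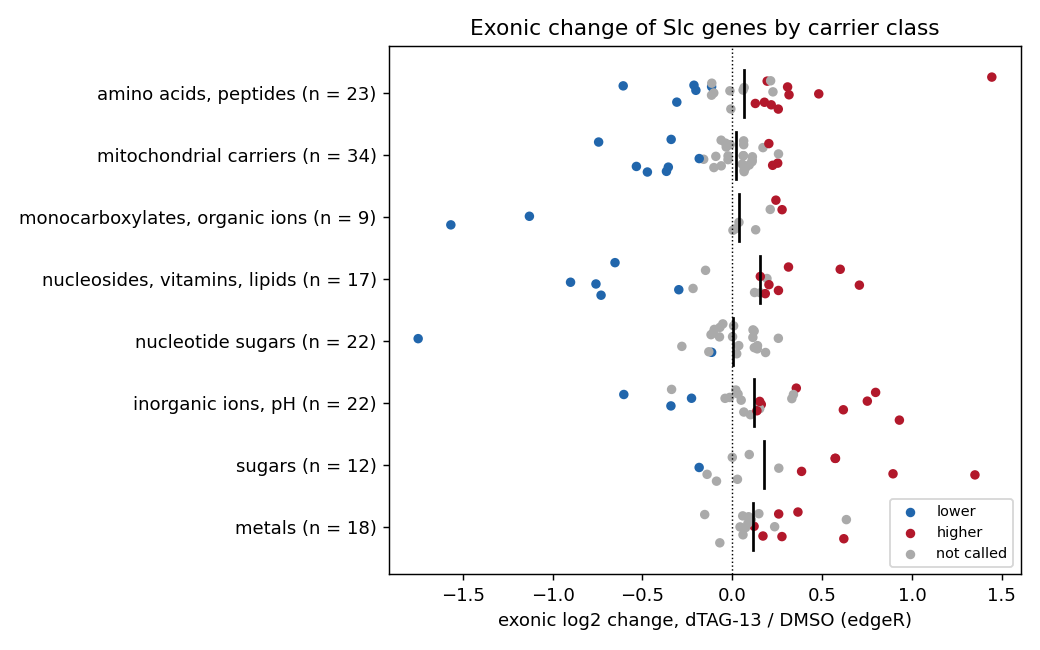
Exonic log2 change (dTAG-13 over DMSO) of each of the 157 Slc genes, grouped in 8 classes of transported solute; each point is a gene, coloured by its call at an adjusted p of 0.05, and the short vertical bar is the class median. Nucleotide-sugar carriers lie close to 0 apart from Slc35f3, while the other classes hold called genes in both directions except the metal carriers, whose 6 called genes are all higher.

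The monocarboxylate and organic ion carriers held the most abundant gene that fell by at least 1.5-fold. Slc16a1 encodes a proton-coupled carrier that takes lactate and pyruvate across the plasma membrane; the gene lies on chromosome 3 (104638668 to 104658462, plus strand, GRCm38). Its exonic level was 532, 527, 504 and 528 CPM with DMSO and 252, 228, 247 and 228 CPM with dTAG-13. The highest treated library was thus well below the lowest control library, and the level was 2.19-fold lower (log2 change -1.13 ± 0.04 SE, edgeR adjusted p = 2.2e-18). Slc17a9, whose product loads vesicles with nucleotides, stood at 40.9, 37, 40 and 35.3 CPM in DMSO and at 10.6, 13.6, 13.6 and 13.9 CPM after dTAG-13. The groups did not overlap, and the level was 2.96-fold lower (-1.57 ± 0.07 SE, edgeR adjusted p = 2.8e-15). Of the 9 genes in this class 4 were called (44.4%), and 2 of them rose: the monocarboxylate carrier relative Slc16a6 (37.9 ± 2.9 to 44.9 ± 3.4 CPM, mean ± SD, n = 4 each) and the carnitine carrier Slc22a5 (14.4 ± 1.7 to 17.4 ± 0.65 CPM, mean ± SD, n = 4 each). Bsg, which encodes the chaperone that brings Slc16a1 to the membrane, had 106 ± 6.7 CPM in DMSO and 101 ± 3.8 CPM after dTAG-13 (mean ± SD, n = 4 each) and did not pass the test.

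Carriers of nucleosides, vitamins, choline, haem and lipids were the class with the highest share of called genes: 5 of 17 fell and 7 rose (70.6% called, beside 32.2 percent of genes of at least 1 CPM). Slc29a1, the main equilibrative nucleoside carrier of the plasma membrane (chromosome 17, 45585200 to 45599606, minus strand), had 265, 254, 256 and 255 CPM in DMSO and 143, 141, 138 and 129 CPM after dTAG-13. The groups were far apart, with a level 1.87-fold lower after dTAG-13 (-0.90 ± 0.04 SE, edgeR adjusted p = 2.5e-16). Slc29a2, a plasma membrane relative that also carries nucleobases, fell from 8.78, 9.74, 9.03 and 8.14 to 5.38, 5.41, 6.15 and 5.72 CPM (1.57-fold lower). Slc29a3, the relative found in lysosomes, rose from 8.64, 9.91, 9.52 and 9.01 to 14.3, 15.7, 15.4 and 15.1 CPM (1.63-fold higher). All 3 measured members of this family thus passed the test, the plasma membrane members downward and the lysosomal member upward. The exons of Slc29a1 overlap Gm17080 on the opposite strand, which was at 0.319 CPM in DMSO and 0.133 CPM after dTAG-13. Slc28a2, a sodium-coupled nucleoside carrier, was 1.11-fold higher, and its call was lost in 7 of 8 fits that left out 1 library (edgeR adjusted p up to 0.179).

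Both vitamin carriers of family 19 fell. Slc19a1, the reduced folate carrier (chromosome 10, 77032241 to 77061002, plus strand), had 75.8, 80.2, 77.8 and 79.4 CPM in DMSO and 44.4, 43.9, 48.6 and 48.2 CPM after dTAG-13. The groups did not overlap and the level was 1.69-fold lower (-0.76 ± 0.04 SE, edgeR adjusted p = 1.8e-13). The thiamine carrier Slc19a2 was 1.23-fold lower (19.6 ± 2.4 to 16 ± 1.3 CPM, mean ± SD, n = 4 each), a call lost without DMSO replicate 4 (edgeR adjusted p = 0.0551). The 2 ascorbate carriers moved in opposite directions: Slc23a1 fell 1.66-fold (10.7 ± 1.0 to 6.47 ± 0.83 CPM) and Slc23a2 rose 1.24-fold (30.7 ± 1.6 to 38.1 ± 2.8 CPM; mean ± SD, n = 4 each). In whole-gene counts the rise of Slc23a2 did not pass the test. Among the genes that rose, the urea carrier Slc14a1 went from 27.3, 26.7, 27.7 and 27.5 to 42.3, 38.9, 44.2 and 40.4 CPM (1.52-fold higher). The choline carrier relative Slc44a2, the haem carrier Slc48a1 and the acetyl-CoA carrier Slc33a1 rose less, by 1.19-, 1.15- and 1.14-fold.

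**Figure D2:**
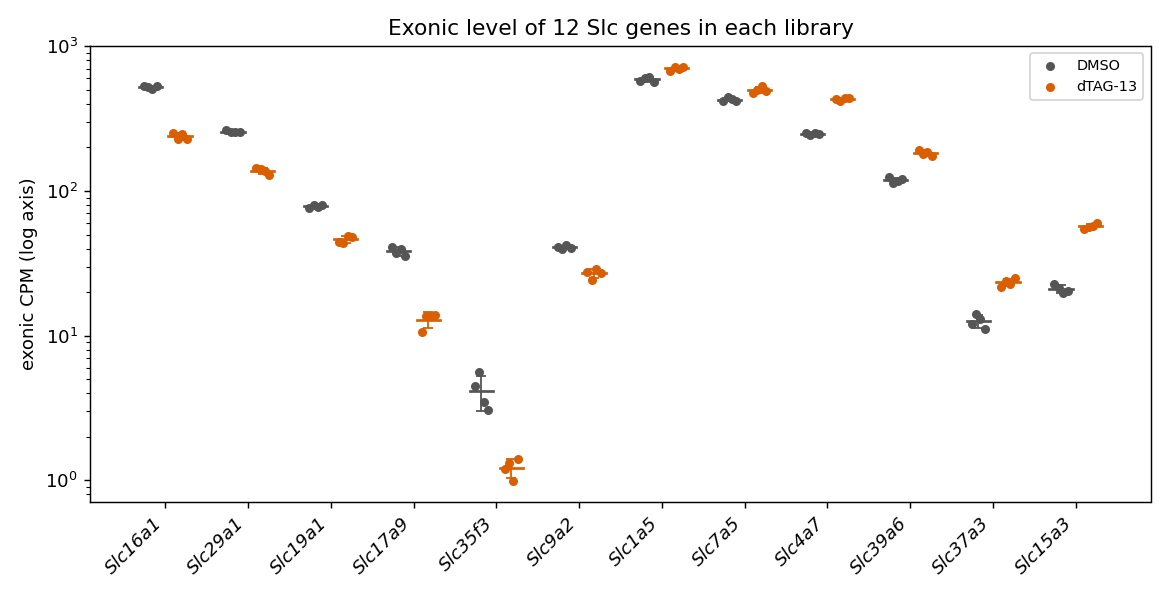
Exonic level (CPM, log axis) of 12 Slc genes in each library; grey points are the 4 DMSO libraries, orange points the 4 dTAG-13 libraries, and lines give the mean with bars of 1 SD. Groups do not overlap for any gene shown, from Slc35f3 at 0.987 to 5.59 CPM up to Slc1a5 at 564 to 720 CPM.

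Promoter sequence is shown for 4 genes that fell or rose by a clear margin and carry a motif of interest, so that the letters can be read beside the values. RefSeq promoter entries (250 bases before to 50 after each start, GRCm38.p6) were found for 116 of the 157 genes, 153 entries in all. Searched on both strands were CCCNNGGG, the core of the site that EBF1 binds; a longer form that contains it, with T before and A after; and CACGTG, the E-box bound by MYC and related factors, added after the data were seen. Each sequence below is the stretch before the start on the gene's own strand, 5′ to 3′, with matches in capitals. They are Slc16a1 (chr3:104638414-104638663, plus strand), Slc29a1 at 1 of its alternative starts (chr17:45595247-45595481, minus strand, 235 bases), Slc25a1 (chr16:17928220-17928469, minus strand) and Slc37a3 (chr6:39377708-39377957, minus strand).
Slc16a1: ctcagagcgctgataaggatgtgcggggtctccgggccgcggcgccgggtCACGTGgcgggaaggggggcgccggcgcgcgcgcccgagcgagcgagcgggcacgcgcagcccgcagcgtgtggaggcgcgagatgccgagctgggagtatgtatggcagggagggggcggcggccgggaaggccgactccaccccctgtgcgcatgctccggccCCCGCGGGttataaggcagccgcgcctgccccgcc
Slc29a1: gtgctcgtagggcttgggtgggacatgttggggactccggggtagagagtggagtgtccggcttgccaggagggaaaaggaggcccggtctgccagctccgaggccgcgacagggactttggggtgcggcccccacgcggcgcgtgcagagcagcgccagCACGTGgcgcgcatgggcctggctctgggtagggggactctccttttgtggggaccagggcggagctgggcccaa
Slc25a1: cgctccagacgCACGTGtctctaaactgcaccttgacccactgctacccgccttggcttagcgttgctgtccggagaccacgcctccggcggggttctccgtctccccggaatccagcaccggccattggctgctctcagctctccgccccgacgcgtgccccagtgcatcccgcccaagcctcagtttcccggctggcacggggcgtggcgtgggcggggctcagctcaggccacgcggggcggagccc
Slc37a3: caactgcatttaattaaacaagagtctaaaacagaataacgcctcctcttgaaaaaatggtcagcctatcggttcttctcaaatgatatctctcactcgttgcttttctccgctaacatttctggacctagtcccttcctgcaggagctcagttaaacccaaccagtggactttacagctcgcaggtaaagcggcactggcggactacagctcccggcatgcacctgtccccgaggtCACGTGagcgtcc
The promoter of Slc16a1 holds a CACGTG and a CCCNNGGG match, and those of the other 3 genes hold 1 CACGTG each in the printed stretch. Slc29a1 has 8 entries in the table: CACGTG is found at the printed start only, and CCCNNGGG is found at 2 other starts, at positions -244 (CCCGAGGG) and -65 (CCCACGGG). A CACGTG was found in the promoters of 5 of 17 lower genes (29.4%), 6 of 30 higher genes (20%) and 8 of 69 genes that did not pass the test (11.6%), against 12.4% of tested genes of at least 1 CPM and 8.09% of all genes in the table. CCCNNGGG was found for 7 of 17 lower genes (41.2%), 9 of 30 higher genes (30%) and 21 of 69 others (30.4%), against 20.4% of tested genes of at least 1 CPM and 15.4% of all. A gene with more entries has more chances of a match, and the 17 lower genes had 29 entries. Per entry, CACGTG was found in 20.69% (lower), 15.38% (higher) and 10.59% (not called), against 10.58% for tested genes of at least 1 CPM. The matching shares of entries for CCCNNGGG were 31.03%, 25.64% and 24.71%, against 17.52%. The longer form occurred in the promoter of 1 of the 116 genes, Slc30a5, against 1.17% of tested genes of at least 1 CPM. A match describes these letters only and does not show that a factor binds there. For scale, Slc25a1 fell from 92.9, 98.4, 96.9 and 97.3 to 67.4, 71.1, 74.1 and 65.2 CPM, and Slc37a3 rose from 12.1, 14.1, 13.1 and 11.1 to 21.8, 23.9, 22.8 and 25 CPM. Neither gene's groups overlapped.

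The families of amino acid and peptide carriers held 23 genes, Slc7a6os among them, of which 5 fell and 9 rose (60.9% called, beside 32.2 percent of genes of at least 1 CPM). The neutral amino acid carriers of family 1 both rose. Slc1a5, the main glutamine carrier of dividing cells and by CPM the most abundant of the 157 genes, had 572, 604, 617 and 564 CPM in DMSO and 679, 720, 700 and 717 CPM after dTAG-13. The groups were apart by a modest margin, 1.19-fold higher after dTAG-13 (0.26 ± 0.04 SE, edgeR adjusted p = 2.3e-06). Its close relative Slc1a4 rose 1.40-fold, from 48.3, 49.1, 44.7 and 47.2 to 62.4, 68.8, 65.5 and 67.3 CPM. Both chains of the leucine exchanger also rose: the transport chain Slc7a5 went from 417, 445, 432 and 421 to 476, 497, 531 and 489 CPM (1.16-fold), and the heavy chain Slc3a2 from 184, 187, 184 and 184 to 208, 211, 220 and 206 CPM (1.14-fold). No library of 1 group reached into the range of the other for either chain.

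The largest rise among all 157 genes belonged to Slc15a3, which carries peptides and histidine out of lysosomes and endosomes (chromosome 19, 10839727 to 10859362, plus strand). It had 22.7, 21.4, 19.8 and 20.3 CPM in DMSO and 55, 56.2, 57 and 60.5 CPM after dTAG-13. The groups were widely separated, with a 2.72-fold higher level (1.44 ± 0.05 SE, edgeR adjusted p = 1.2e-17). Its exons overlap those of Tmem132a on the opposite strand, which was at 0.234 CPM in DMSO and 0.511 CPM after dTAG-13 and did not pass the test. Slc15a3 is also expressed in myeloid cells, whose summed markers are given above at 1.06 CPM or less in every library; their part in the rise was not tested. The related Slc15a4, which also serves endolysosomes, rose 1.13-fold, a call lost without DMSO replicate 2 or 4 or dTAG-13 replicate 2 (edgeR adjusted p 0.0758 to 0.0793). Slc36a1, a lysosomal proton-coupled amino acid carrier, rose 1.24-fold from 11.8 ± 1.4 to 14.7 ± 0.23 CPM, and the glycine carrier Slc6a9 rose 1.24-fold from 18.2 ± 1.1 to 22.6 ± 1.4 CPM (mean ± SD, n = 4 each). The remaining rise, of Slc38a10, was 1.09-fold, and its call was lost when replicate 2 of the DMSO group (edgeR adjusted p = 0.0668) or replicate 1 of the treated group (0.0762) was left out.

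Slc66a1, which carries cationic amino acids out of lysosomes, fell 1.52-fold (3.21, 3.73, 4.57 and 2.35 to 2.42, 2.09, 1.97 and 2.63 CPM). Its groups overlapped, and the call was lost without DMSO replicate 2 or 3 or dTAG-13 replicate 2 or 3 (edgeR adjusted p 0.0615 to 0.149). Slc43a3 and Slc43a2 of family 43 fell 1.24- and 1.16-fold, and Slc7a6, an exchanger of cationic and neutral amino acids, fell 1.15-fold. Slc38a2, a sodium-coupled glutamine and alanine carrier, had 505, 503, 497 and 505 CPM in DMSO and 489, 457, 456 and 455 CPM after dTAG-13. The difference was 1.08-fold with no overlap, and it did not pass the test in whole-gene counts (edgeR adjusted p = 0.0994). The neighbouring relative Slc38a1 had 157 ± 4.5 and 164 ± 3.3 CPM (mean ± SD, n = 4 each) and did not pass the test, nor did the arginine carrier Slc7a1 at 304 ± 3.9 and 301 ± 14 CPM.

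The mitochondrial carrier family (family 25) was the largest, with 34 genes. Its carriers exchange metabolites, nucleotides and ions, mostly across the inner mitochondrial membrane. Of the 34 genes 7 fell (20.6%), 3 rose (8.82%) and 24 did not pass the test. The 29.4% called in either direction was near the background of 32.2 percent, of which 16.1 percent were lower and 16.1 percent higher. Slc25a1, the citrate carrier that supplies cytosolic acetyl-CoA, had the smallest p of the family; its values are given above with its promoter, and its level was 1.39-fold lower (-0.47 ± 0.04 SE, edgeR adjusted p = 1.1e-09). The dicarboxylate carrier Slc25a10 fell 1.29-fold, from 24.3, 26.8, 25.8 and 23.7 to 19.5, 20.9, 18.9 and 18.6 CPM. The iron carrier Slc25a37 fell 1.28-fold, from 87.4, 92.5, 98.5 and 85.2 to 62.7, 72.8, 71.0 and 77.7 CPM. In both genes every treated library was below every control library. Slc25a37 is highly expressed in erythroid cells; of the 4 erythroid markers 3 had no read in any library, and the fourth, Klf1, had a mean of 0.71 CPM in DMSO and 0.0857 CPM after dTAG-13. Its part in the fall was not tested. The coenzyme A carrier Slc25a42 fell 1.45-fold from 5.94 ± 0.56 to 4.09 ± 0.53 CPM (mean ± SD, n = 4 each).

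Slc25a18, a mitochondrial glutamate carrier, had 2, 1.21, 1.77 and 1.95 CPM in DMSO and 0.653, 1.28, 0.987 and 1.23 CPM after dTAG-13, groups that overlap. Its fall of 1.67-fold lost its call when DMSO replicate 1, 3 or 4 or dTAG-13 replicate 1 or 3 was left out (edgeR adjusted p 0.0783 to 0.125). Its exons overlap Atp6v1e1 on the opposite strand, a gene at 46.1 CPM in DMSO and 46.8 CPM after dTAG-13. The 2 remaining lower genes, Slc25a26 (S-adenosylmethionine) and Slc25a33 (pyrimidine nucleotides), fell 1.27- and 1.14-fold, and each call was lost when any 1 of several libraries was left out (edgeR adjusted p up to 0.149), that of Slc25a33 also in whole-gene counts. The 3 genes that rose were the oxoglutarate carrier Slc25a11 (1.19-fold), Slc25a45 (1.17-fold) and the ornithine carrier Slc25a15 (1.15-fold). The abundant carriers of energy metabolism did not pass the test: the ADP/ATP carrier Slc25a5 had 405, 410, 383 and 385 CPM in DMSO and 424, 371, 406 and 368 CPM after dTAG-13, and the phosphate carrier Slc25a3 had 314 ± 1.4 and 301 ± 12 CPM (mean ± SD, n = 4 each).

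The families of inorganic ion and proton carriers held 22 genes, among them Slc4a1ap and Slc9a3r1, which are not carriers; 3 fell and 8 rose, Slc9a3r1 being 1 of the 8 (50% called, beside 32.2 percent of genes of at least 1 CPM). Slc4a7, a sodium bicarbonate cotransporter that brings base into the cell (chromosome 14, 14702279 to 14799940, plus strand), had 253, 245, 250 and 248 CPM in DMSO and 431, 421, 439 and 439 CPM after dTAG-13. The replicates were tight and the groups far apart, with a level 1.74-fold higher (0.80 ± 0.03 SE, edgeR adjusted p = 2.1e-16). The anion exchanger Slc4a2 of the same family rose 1.12-fold. Slc8b1, the sodium-calcium exchanger of mitochondria, rose 1.91-fold, from 3.91, 3.73, 3.29 and 4.79 to 7.48, 8.29, 7.40 and 6.77 CPM. The sulfate carrier relative Slc26a11 rose 1.68-fold at a low level (2.74 ± 0.55 to 4.61 ± 0.97 CPM, mean ± SD, n = 4 each).

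Family 9 holds the sodium-proton exchangers. Of its 8 genes 1 fell, 2 rose, Slc9a3r1 among them, and 5 did not pass the test. Slc9a2, which works at the plasma membrane, fell from 41.2, 39.9, 42.1 and 40.4 to 27.6, 24.2, 28.9 and 27 CPM (1.52-fold lower, -0.60 ± 0.06 SE, edgeR adjusted p = 1.6e-09). Slc9a7, found in the trans-Golgi network and endosomes, rose from 15.8, 13.9, 15.5 and 16.3 to 22.4, 22.5, 24.7 and 24.8 CPM (1.53-fold higher). Neither gene's groups overlapped. Slc9a3r1, named after an exchanger but encoding a scaffold protein, rose 1.28-fold. Slc12a7, a potassium-chloride cotransporter, fell 1.27-fold (62, 65.3, 61.9 and 67.4 to 46, 50.7, 51.1 and 54.8 CPM). The phosphate carriers Slc20a1 and Slc20a2 rose from 124 ± 1.7 to 137 ± 2.3 CPM and fell from 31.6 ± 1.8 to 27 ± 1.2 CPM (mean ± SD, n = 4 each).

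Of 12 genes in the sugar carrier families, the pseudogene Slc2a4rg-ps included, 1 fell and 5 rose (50% called, beside 32.2 percent of genes of at least 1 CPM). Family 37 resembles bacterial sugar-phosphate exchangers. Slc37a3, with the values given beside its promoter, was 1.86-fold higher (0.89 ± 0.08 SE, edgeR adjusted p = 5.6e-10). Slc37a2, known from macrophages, went from 0.968, 1.07, 0.365 and 0.838 to 2.28, 2.50, 1.19 and 2.17 CPM (2.55-fold higher); it is a low-level gene, and its lowest treated value lies just above its highest control value. The myeloid marker values above stand beside this gene too, and their part was not tested. Both intracellular glucose carrier relatives rose 1.49-fold, Slc2a6 from 4.62 ± 0.34 to 6.86 ± 0.49 CPM and Slc2a8 from 2.35 ± 0.11 to 3.5 ± 0.49 CPM (mean ± SD, n = 4 each). Slc50a1, a sugar efflux carrier, rose 1.31-fold from 19.7, 22.8, 21.0 and 21.0 to 29.3, 29, 27.1 and 24.9 CPM. The main glucose carrier Slc2a1 had 37.8 ± 3.1 and 40.4 ± 1.6 CPM (mean ± SD, n = 4 each) and did not pass the test. The urate and sugar carrier Slc2a9 fell 1.14-fold.

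Among 18 metal carriers 6 rose (33.3%) and none fell. Among genes of at least 1 CPM, 16.1 percent were higher and 16.1 percent were lower. The share of higher calls was thus above the background, and only the share in either direction was near it (32.2 percent). Slc39a6, a zinc importer of the plasma membrane, had 124, 113, 117 and 121 CPM in DMSO and 193, 179, 186 and 174 CPM after dTAG-13. The groups did not overlap and the level was 1.54-fold higher (0.62 ± 0.04 SE, edgeR adjusted p = 2.0e-12). Its partner in a zinc import complex, Slc39a10, rose 1.13-fold with overlapping groups, a call lost without DMSO replicate 3 (edgeR adjusted p = 0.0795). The zinc exporter Slc30a1 also rose, 1.29-fold from 9.47, 10.6, 8.66 and 9.68 to 11.6, 10.4, 13.3 and 14.3 CPM, and its groups overlapped. Slc30a7 and Slc30a5, which fill Golgi vesicles with zinc, rose 1.20- and 1.09-fold; the call of Slc30a5 was lost when any 1 of 4 libraries was left out (edgeR adjusted p 0.0516 to 0.0805) and in whole-gene counts. The copper importer Slc31a1 rose 1.21-fold. Slc39a4, just inside the level limit, had 0.897 ± 0.20 and 1.39 ± 0.24 CPM (mean ± SD, n = 4 each) and did not pass the test.

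Family 35, the class of nucleotide-sugar carriers of the Golgi and endoplasmic reticulum, also holds genes with other or unknown substrates. Of its 22 genes 2 fell and none rose. That share of 9.09% stands beside 32.2 percent for genes of at least 1 CPM. The exception in size was Slc35f3, an orphan member of the family (chromosome 8, 126298558 to 126395482, plus strand), with 4.49, 5.59, 3.47 and 3.06 CPM in DMSO and 1.20, 1.33, 0.987 and 1.40 CPM after dTAG-13. It was the largest fall of the 157 genes, 3.36-fold lower (-1.75 ± 0.22 SE, edgeR adjusted p = 3.0e-07), and its groups did not overlap. Slc35a4 fell 1.08-fold, a call lost when any 1 of 4 libraries was left out (edgeR adjusted p 0.0762 to 0.118) and in whole-gene counts. The UDP-N-acetylglucosamine carrier Slc35a3 had 97.1 ± 2.2 and 97.6 ± 4.4 CPM (mean ± SD, n = 4 each) and did not pass the test.

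**Figure D3:**
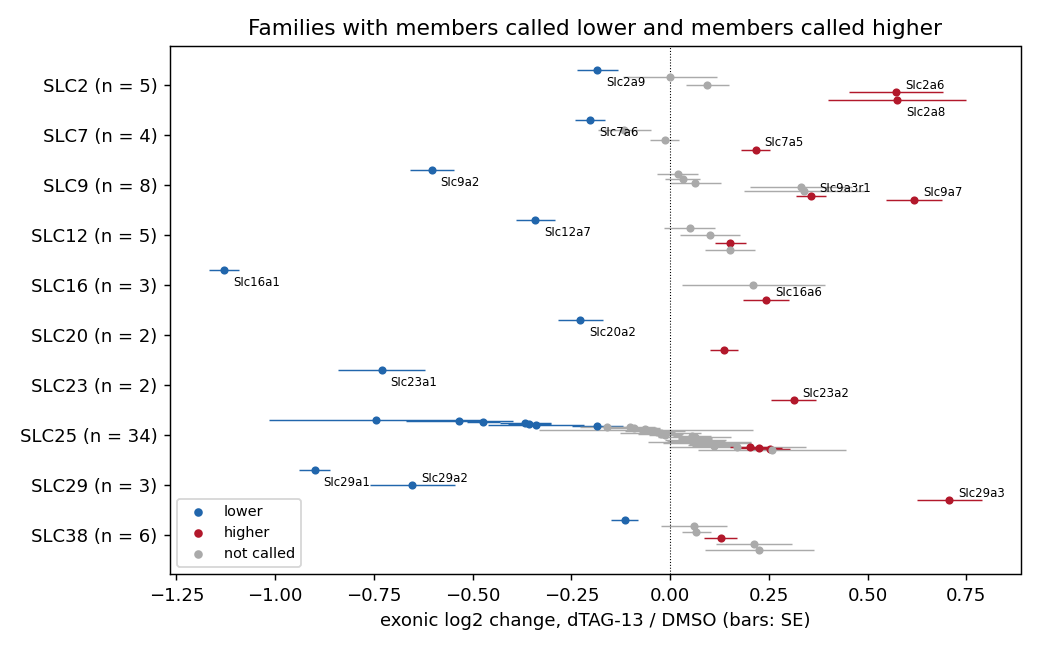
Exonic log2 change (dTAG-13 over DMSO) of each Slc gene in the 10 families that hold called genes in both directions, 1 row per family with its number of genes; points are genes coloured by their call at an adjusted p of 0.05, bars are 1 SE, and the called genes with the larger changes are named outside family 25. Slc29a1 at -0.90 and Slc29a2 at -0.65 lie opposite Slc29a3 at 0.71, and Slc9a2 at -0.60 lies opposite Slc9a7 at 0.62.

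By family, 28 of 42 had at least 2 measured genes. In 10 families (2, 7, 9, 12, 16, 20, 23, 25, 29 and 38) called genes lay in both directions, in 5 they were only lower, in 19 only higher, and in 8 none was called. Families with a single measured gene, such as 14, 31 and 44, are among the 19 and cannot hold called genes in both directions. Among neighbouring Slc genes, Slc29a1 (-0.90) and Slc35b2 (-0.12, not called) lie 17529 bases apart, and Slc25a15 (0.20) and Slc20a2 (-0.23) lie 78191 bases apart and were called in opposite directions. In 110 of the 157 genes the annotated exons overlap no other gene. Levels between genes can be compared only per length: in CPM per kilobase of annotated exon, Slc25a5 ranked highest at 239, followed by Slc1a5 at 155, Slc7a5 at 125 and Slc16a1 at 86.0, as means over both groups.

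Intronic counts could be tested for 153 of the 157 genes, and 16 fell and 20 rose. The shares over all 11229 genes tested in introns were 8.50 percent lower and 8.26 percent higher, or 16.8 percent in all. Exonic and intronic counts come from the same libraries, so their values are given side by side. Intronic CPM are scaled to intronic read totals and exonic CPM to exonic read totals. The exonic and intronic CPM of a gene are therefore not amounts on a common scale, and only their changes are set beside each other. Slc16a1 had 190, 207, 197 and 185 intronic CPM in DMSO and 84.0, 92.4, 101 and 86.2 after dTAG-13, a log2 change of -1.1 beside -1.13 in exons. Slc29a1 changed by -0.93 beside -0.90, Slc17a9 by -1.48 beside -1.57, Slc15a3 by 1.39 beside 1.44 and Slc39a6 by 0.61 beside 0.62. In each of these 5 genes both changes passed the test. Of the 65 genes called in exons, 64 were tested in introns and 35 passed there, counted in either direction. The matching share over all genes called in exons was not counted.

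For the difference between exonic and intronic change, none of 153 Slc genes passed edgeR's test of the interaction at an adjusted p of 0.05, against 0.289 percent of 10026 tested genes. At an unadjusted p below 0.05 there were 9 (5.88%), against 7.63% of tested genes. The smallest such p belonged to Slc1a5: its intronic level was 482, 511, 517 and 447 CPM in DMSO and 478, 518, 507 and 493 CPM after dTAG-13, groups that overlap. Its exonic change exceeded the intronic change by 0.23 ± 0.07 SE (log2; edgeR unadjusted p = 0.00285, adjusted p = 0.255). The other 8 were Slc2a9, Slc4a7, Slc9a7, Slc10a3, Slc23a2, Slc25a1, Slc37a2 and Slc39a1. The median standard error was 0.07 for exonic change, 0.10 for intronic change and 0.12 for their difference, which sets the size of a difference that could be detected at this depth. Slc9a9, an endosomal sodium-proton exchanger, was called in introns (0.42, edgeR adjusted p = 1.9e-04) and not in exons (0.33, adjusted p = 0.058). Its intronic level was 209, 176, 236 and 215 CPM in DMSO and 271, 283, 262 and 305 CPM after dTAG-13. Slc9a9 is not among the 9 genes with an unadjusted p below 0.05 for the difference. These calls therefore do not show that its exonic and intronic changes differ. The annotated genes Gm16262, Gm47168 and Mir7656 overlap the span of Slc9a9 outside its exons. Their part in its intronic count was not tested.

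**Figure D4:**
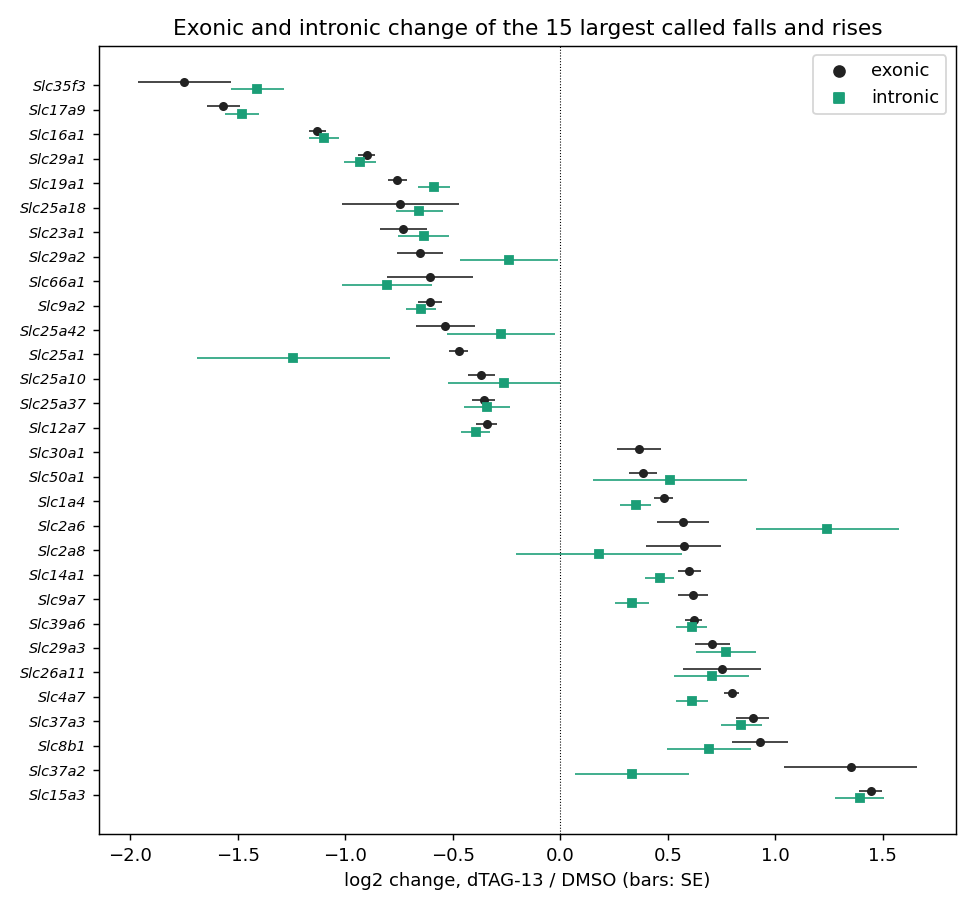
Log2 change (dTAG-13 over DMSO) in exonic counts (black circles) and intronic counts (green squares) of the 15 largest called exonic falls and rises, 1 gene per row; bars are 1 SE, and Slc30a1 has no intronic value because it was not tested there. The 2 values lie close together for Slc16a1, Slc29a1 and Slc39a6, while Slc25a1 (-1.24 in introns, not called) and Slc37a2 (0.33 in introns, not called) have wide intronic bars at few intronic reads.

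Other transport genes were counted in the same fit. Of 36 tested SLC-type carriers without an Slc symbol, 4 fell and 4 rose (22.2%). Of these, the mitochondrial carrier Ucp2 fell from 1544 ± 19 to 717 ± 26 CPM, and Mfsd4a, a member of the major facilitator superfamily, fell from 4.44 ± 0.58 to 1.43 ± 0.43 CPM (mean ± SD, n = 4 each). Unc93b1, which escorts Toll-like receptors to endosomes, rose from 133 ± 3.3 to 213 ± 3.0 CPM, and Sv2a, a synaptic vesicle protein, from 5.40 ± 0.62 to 8.26 ± 1.3 CPM. Of 31 tested partners and regulators of carriers, 3 fell and 14 rose (54.8%), a list that also holds Slc9a3r1. Myc, a transcription factor known to act on many carrier genes, fell from 212 ± 2.9 to 79.3 ± 3.3 CPM, and its paralogue Mycn rose from 138 ± 3.2 to 236 ± 6.8 CPM. Steap3, an endosomal iron reductase, fell from 79.4 ± 3.0 to 36.2 ± 0.56 CPM, and Tfeb, a transcription factor of lysosomal genes, rose from 60.7 ± 1.1 to 96.4 ± 2.1 CPM. Of 19 tested genes matched by name to the ATP-binding cassette family, 2 fell and 6 rose (42.1%). Both lower genes, Abcf2 and Abcf1, belong to a subfamily that has no membrane domain and does not transport, and Abce1, tested and not called, is likewise no transporter. The higher genes include Abcg1 (57 ± 2.0 to 75.5 ± 3.1 CPM), Abca2 (154 ± 8.1 to 189 ± 5.3 CPM) and Abca7 (45.9 ± 4.2 to 60.6 ± 3.7 CPM; mean ± SD, n = 4 each). These 3 lists were not limited to genes of at least 1 CPM, so their shares stand beside 28.3 percent of all tested genes. For genes of at least 1 CPM the share was 32.2 percent.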

How the data were processed

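Total RNA of 8 libraries (4 DMSO, 4 dTAG-13) had been counted by the authors in exons and in whole genes; the deposited tables hold raw counts per gene. Per the submitters' processing notes, STAR 2.7.4a, SAMtools 1.10, deepTools 3.3.2, featureCounts of Subread 2.0.0 and DESeq2 were used, with the builds mm10 and GRCm38.p4; the annotation release and strand setting of the counting are not given in the sources used here. From the authors' deposited table of DESeq2 results gene names were taken, and, for comparison, its p-values: at an adjusted p below 0.05 the authors' deposited table has 25 lower and 39 higher Slc genes, of which 64 have the same call here. Its log2 fold changes were deposited by the authors and were not used.

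Intronic counts are whole-gene minus exonic counts. Genes passing filterByExpr (minimum count 10, minimum total 15) went into edgeR 4.0.16 under R 4.3.3 (TMM, quasi-likelihood F test, Benjamini-Hochberg adjustment), and the difference of exonic and intronic change over 16 columns with library as a block. CPM are on TMM-scaled library sizes, taken separately for exonic and intronic counts. The steps were tested on simulated data. Classes follow the SLC family number, so a class can hold genes with other or unknown substrates. Coordinates and exon lengths are from GENCODE vM21 (GRCm38), in which all 157 genes were found, 110 with the same identifier version. Without the counting's strand setting, reads of genes with overlapping exons on opposite strands (39 genes) cannot be told apart. Some Slc genes also overlap another gene outside their exons, as Slc39a6 does Elp2, and its part in the intronic counts was not tested. The main fit does not pair libraries by replicate number. Deviations of same-numbered libraries correlated by -0.08 to 0.12, and those of other pairs by -0.27 to 0.25. These values cannot settle whether the libraries were paired, because the ranges overlap.

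Named genes are the 15 largest called falls and rises, the smallest p of each class, the 6 most abundant, those just inside and outside the CPM limit and up to 4 genes of each list of other transport genes. Some genes are not reported here. All further genes named, such as Slc3a2, Slc9a3r1, Abcf2, Abcf1, Slc23a2 and those of families 20 and 43, were picked once their values were seen. The members and lists were chosen with earlier results of these data known. Alternatives were DESeq2 1.42.0, RLE size factors, no filter, whole-gene counts, a replicate block, other CPM limits and leaving out each library.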

Additional observations from a re-analysis of the deposited data

Results flagged for a closer look

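In 146 sets of 4 replicate values of the named Slc genes (exonic or intronic CPM of 1 group), the highest or lowest library was compared with the rest by Dixon's ratio; 10 sets passed its 95% critical value, and chance gives about 1 in 20. Of the 10, 4 come from dTAG-13 replicate 1. Slc17a9 had an exonic level of 10.6 CPM there, below 13.6 to 13.9 CPM in the other treated libraries, and Slc38a2 had 489 CPM, above 455 to 457 CPM. In the same library Slc1a4 had 78.4 intronic CPM, below 90.9 to 93.2, and Slc2a6 had 6.53 intronic CPM, above 4.12 to 4.48.

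In dTAG-13 replicate 3, Slc17a9 had 29.1 intronic CPM against 31 to 31.2 in the others, Slc25a10 had 3.18 intronic CPM against 4.38 to 4.52, and Slc25a47 had 1.43 exonic CPM against 0.972 to 1.02. Slc39a6 had 102 intronic CPM in dTAG-13 replicate 4, against 106 in each of the others. Among the DMSO libraries, Slc7a5 had 203 intronic CPM in replicate 1 against 219 to 222, and Slc23a1 had 12.3 exonic CPM in replicate 3 against 10.1 to 10.3. The 2 groups overlapped for the exonic level of Slc25a47 and the intronic level of Slc25a10, neither of which was called, and did not overlap for the other 8.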

How the results depend on the processing

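The count of lower Slc genes in exons was 25 and ranged from 22 to 26 over RLE size factors, no filter on low counts, DESeq2 and whole-gene counts, and from 21 to 28 when 1 library was left out; that of higher genes was 40, with ranges of 39 to 42 and 37 to 40. Leaving out 1 library gave 13 to 17 lower and 18 to 23 higher genes in introns and 0 genes with a different exonic and intronic change in each fit; the median exonic change was 0.06 to 0.08. Level limits of 0.5 and 2 CPM gave 25 and 24 lower and 41 and 39 higher genes. With the replicate number as a block the counts were 26 lower and 42 higher in exons, 16 lower and 21 higher in introns and 0 for the difference; 2 of 4 DMSO libraries correlated best with the treated library of their own number. Under the block Slc25a18 had an adjusted p of 0.0515 (edgeR), and no other named Slc gene changed its call. Of the 65 called genes, 54 were called in each of the 8 fits without 1 library (19 lower, 35 higher). How many of all called genes kept their call in these fits was not counted, so these numbers describe the Slc genes only. No called named Slc gene changed sign in any alternative run; the uncalled Slc25a5 (in 4 alternatives) and Slc25a47 (in 1) did, both near 0. Depth limits genes near 1 CPM most, and p-values set the difference between the groups against the spread of these 8 libraries within their groups.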
